A study of Mus musculus with 15 samples.

Results

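Transcript levels in mouse mammary carcinoma cells that carry the phosphomimic Twist1 S42D were compared with those in cells that carry Twist1 S42A, which cannot be phosphorylated at that position. The samples were chosen by their titles, and they are 6 of the 15 arrays of the study, 3 for S42D and 3 for S42A. Both lines were made from 4T1 cells, a metastatic mammary carcinoma line of the mouse, after depletion of Twist1 (the Tw1KD line), and each then received its Twist1 construct. The other arrays, 3 per line, hold Tw1KD cells with wild-type Twist1, Tw1KD cells with no construct, and parental 4T1 cells; they entered the estimate of the spread and are given here for orientation. By the labels' protocols every line was harvested at 70% confluency from DMEM that held puromycin (4 µg/ml) and G418 (800 µg/ml). In the genotype field the S42D samples carry both mutations' names, and they were assigned by title. Whether a line is 1 clone or a pool, and how depletion and re-expression were done, are not given in the sources used here, so a difference between substitutions and a difference between 2 separately made lines cannot be told apart.

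Twist1 is a basic helix-loop-helix factor that binds E-boxes, short DNA elements with the letters CANNTG, and drives the epithelial-mesenchymal transition (EMT), in which carcinoma cells loosen their junctions and take up a migratory, matrix-producing state. The mutated serine is a site of the kinase Akt, the main effector of phosphoinositide 3-kinase (PI3K). Aspartate carries a negative charge there, somewhat as a phosphate does, and alanine carries none. In mammary carcinoma, phosphorylated Twist1 has been linked to metastasis and to the transcription of transforming growth factor beta 2 (Tgfb2), a secreted ligand that itself feeds EMT and PI3K signalling. The comparison asks which transcripts differ between a Twist1 with a charge at this site and a Twist1 without one.

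The values are log2 intensities as the authors deposited them, 1 for each of 34760 probe sets, and 19937 genes with 1 symbol each were tested. A gene is written as called where limma's moderated test, fitted over all 15 arrays, gave a Benjamini-Hochberg adjusted p under 0.05. Values after ± are standard errors for differences (S42D minus S42A, log2) and standard deviations for levels (log2), with n = 3 arrays per line in each case. No label tells if the replicates came from separate cultures, so the p-values measure only the spread between these arrays. Correlations across genes were 0.9985 to 0.9989 among the S42D arrays, 0.9978 to 0.9989 among the S42A arrays and 0.9833 to 0.9848 between the lines. No array stood apart within its line. Arrays give no read depth, and their number limits the precision.

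Twist1 itself read 9.07, 8.96 and 8.97 in S42D cells, against 8.60, 8.71 and 8.80 in S42A cells. The S42D arrays all lay above the S42A arrays, by 0.29 ± 0.080 (adjusted p = 0.0089, 1.23-fold), and with every array centred on its own median the difference was 0.22 with an adjusted p of 0.051. The S42D and S42A values did not overlap, in either direction, for 46.2% of all genes. The other lines averaged 8.33 ± 0.16 in the wild-type Twist1 line, 7.35 ± 0.12 in Tw1KD cells and 9.03 ± 0.031 in parental cells. It is not known if this probe set detects RNA from the constructs, and the part of this difference in Twist1 level in the other results was not tested.

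Markers of mammary epithelium were present in both lines in part. The simple keratin genes Krt8 and Krt18 averaged 13.11 ± 0.0072 and 12.66 ± 0.037 in S42D cells, and 13.09 ± 0.016 and 12.38 ± 0.027 in S42A cells. Epcam, an epithelial adhesion gene, was near the low end in both, at 5.63 ± 0.12 in S42D cells and 5.55 ± 0.085 in S42A cells, against 8.36 ± 0.45 in parental cells. Genes with a mean below 5.515, the first quartile of all gene means, are called dim here. Over all genes 17.1% were called higher in S42D cells and 19.1% lower, and no marker list of other cell types exceeded either share. Of 12 fibroblast genes, 2 rose (Dcn and Pdgfra, 16.7%) and 1 fell (Dpt, 8.33%). Of 19 leukocyte genes, 1 rose (Cd68, 5.26%) and 2 fell (Cd14 and Lyz2, 10.5%). Of 12 endothelial genes, 1 rose (Cdh5, 8.33%) and 2 fell (Flt1 and Esam, 16.7%). Their summed linear intensities were 3704 to 3945 in S42D cells and 3136 to 3203 in S42A cells for fibroblast genes, 2617 to 2736 in S42D cells and 2331 to 2422 in S42A cells for leukocyte genes, and 2915 to 3082 in S42D cells and 1657 to 1685 in S42A cells for endothelial genes. Each higher sum rested on 1 gene: without Pdgfra the fibroblast sums were 1128 to 1227 in S42D cells and 1301 to 1389 in S42A cells, without Cd68 the leukocyte sums were 1002 to 1033 in S42D cells and 1109 to 1158 in S42A cells, and without Cdh5 the endothelial sums were 1296 to 1448 in S42D cells and 1503 to 1541 in S42A cells. The pan-leukocyte gene Ptprc (5.11 ± 0.036 in S42D cells, 5.23 ± 0.12 in S42A cells) was dim in both lines, as were the endothelial genes Kdr and Tek, and the differences of Ptprc (-0.12 ± 0.065), Pecam1 (-0.06 ± 0.073) and Col1a1 (0.04 ± 0.091) were not called. In such bulk RNA, fewer cells of a kind and less RNA per cell cannot be told apart.

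Of all genes, 7205 were called (36.1%), 3400 of them higher in S42D (17.1% of those tested) and 3805 lower (19.1%). Most calls were small, 1584 reaching 1.5-fold (7.95%), and the median difference was -0.034 with quartiles of -0.14 and 0.078. At 2-fold or more, 444 genes were higher (2.23%) and 186 lower (0.933%). At 4-fold or more, 132 were higher (0.662%) and 33 lower (0.166%), and at 8-fold or more 43 were higher (0.216%) and 9 lower (0.0451%). The 3 S42D values lay wholly above or wholly below the 3 S42A values for 9201 genes (46.2%). The balance of small calls depended on scaling. Higher genes made up 47.2% of calls on the deposited scale and 30% with each array centred on its median, which gave 2615 higher and 6099 lower. The excess of rises among large differences is visible in the plot of difference against level.

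**Figure D1:**
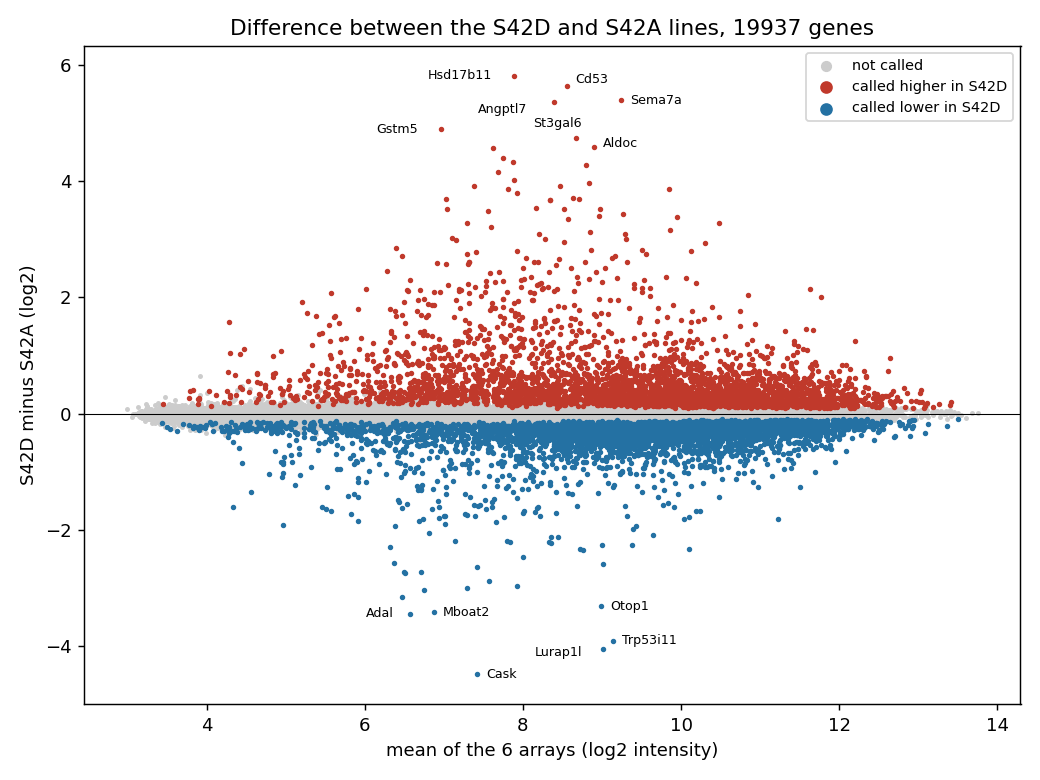
Difference between the lines (S42D minus S42A, log2, vertical axis) against the mean of the 6 arrays (log2 intensity, horizontal axis), 1 point per gene, coloured by call. Points above 2 outnumber points below -2 (132 and 33 called genes), and the outermost genes are labelled.

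The largest rises were those of metabolic, surface and matrix genes. Hsd17b11, a steroid dehydrogenase of lipid droplets, read 10.78, 10.78 and 10.83 in S42D cells, against 5.10, 4.79 and 5.06 in S42A cells. It rose by 5.81 ± 0.098 (56.3-fold, adjusted p = 1.2e-14), and the S42A values were dim, as were those of Tw1KD cells: the other lines averaged 9.80 ± 0.022 in the wild-type Twist1 line, 5.08 ± 0.24 in Tw1KD cells and 10.56 ± 0.046 in parental cells. Cd53, a tetraspanin best known from leukocytes, read 11.40, 11.33 and 11.37 in S42D cells, against 5.76, 5.77 and 5.67 in S42A cells (difference 5.63 ± 0.093, adjusted p = 9.9e-15). The wild-type Twist1 line was also high for Cd53, and the Tw1KD and parental lines were low, with means of 9.76 ± 0.022 in the wild-type Twist1 line, 5.40 ± 0.23 in Tw1KD cells and 6.03 ± 0.14 in parental cells. Sema7a, a membrane-anchored semaphorin, read 11.91, 11.97 and 11.93 in S42D cells, against 6.40, 6.75 and 6.47 in S42A cells (difference 5.39 ± 0.086). Here the other lines lay between the mutant lines, at 8.75 ± 0.030 in the wild-type Twist1 line, 8.70 ± 0.14 in Tw1KD cells and 9.18 ± 0.088 in parental cells. Angptl7, a secreted angiopoietin-like protein, read 11.13, 11.10 and 10.99 in S42D cells, against 5.63, 5.75 and 5.76 in S42A cells. The S42D line was the highest, 5.36 ± 0.086 above S42A, and the S42A, wild-type Twist1 and Tw1KD lines lay close together, the other lines being at 5.69 ± 0.14 in the wild-type Twist1 line, 5.67 ± 0.099 in Tw1KD cells and 8.53 ± 0.16 in parental cells.

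The next rises covered enzymes and transporters. Gstm5, a glutathione transferase of a family of close relatives that probes may not separate, rose by 4.90 ± 0.081. St3gal6, which adds sialic acid to surface glycans, rose by 4.75 ± 0.067, the glycolytic Aldoc by 4.60 ± 0.079 and the amino acid transporter Slc36a4 by 4.57 ± 0.075. Bckdhb, a subunit of the enzyme complex that breaks down branched-chain amino acids, read 9.90, 9.90 and 10.03 in S42D cells, against 5.83, 5.57 and 5.25 in S42A cells, and the lysosomal Hexa read 10.05, 9.95 and 10.11 in S42D cells, against 6.16, 5.46 and 5.52 in S42A cells. For both genes the S42A line alone was low: Bckdhb averaged 9.89 ± 0.048 in the wild-type Twist1 line, 10.27 ± 0.083 in Tw1KD cells and 10.04 ± 0.14 in parental cells, and Hexa averaged 10.04 ± 0.036 in the wild-type Twist1 line, 10.62 ± 0.054 in Tw1KD cells and 9.80 ± 0.030 in parental cells. The peptidase Cpq (4.27 ± 0.057), the kinase Lrrk2 (4.15 ± 0.058), the focal adhesion gene Parvb (4.02 ± 0.051), the proteoglycan gene Bgn (3.98 ± 0.094) and Cd74, the invariant chain of MHC class II (3.92 ± 0.074), complete the 15 largest rises, among which the highest adjusted p was 5.3e-12.

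Among the falls, Cask, a membrane scaffold gene, read 5.08, 5.04 and 5.40 in S42D cells, against 9.56, 9.80 and 9.63 in S42A cells. It fell by 4.49 ± 0.10 (22.4-fold, with dim S42D values, adjusted p = 2.6e-13), and S42A was the high line, since the other lines averaged 4.99 ± 0.048 in the wild-type Twist1 line, 6.0 ± 0.16 in Tw1KD cells and 7.10 ± 0.13 in parental cells. Lurap1l read 7.12, 6.86 and 6.97 in S42D cells, against 11.01, 11.15 and 10.96 in S42A cells, and the S42A arrays again lay highest, with the other lines at 9.72 ± 0.025 in the wild-type Twist1 line, 9.72 ± 0.15 in Tw1KD cells and 9.53 ± 0.014 in parental cells. Trp53i11, named for its induction by p53, read 7.21, 7.44 and 6.89 in S42D cells, against 11.07, 11.17 and 11.02 in S42A cells. For this gene S42D was the low line, with means of 8.37 ± 0.046 in the wild-type Twist1 line, 9.29 ± 0.019 in Tw1KD cells and 11.36 ± 0.055 in parental cells. Adal, a purine nucleotide deaminase, fell by 3.44 ± 0.15 and its neighbour Lcmt2, a tRNA-modifying enzyme, fell by 2.97 ± 0.065. The phospholipid acyltransferase Mboat2 (-3.42 ± 0.10), the proton channel Otop1 (-3.31 ± 0.066), the integrin-binding secreted protein Edil3 (-3.16 ± 0.091), Rassf6 (-3.0 ± 0.13), Tmem185b (-2.87 ± 0.054), the anticoagulant protein S gene Pros1 (-2.75 ± 0.12), Lipn (-2.72 ± 0.098) and Trim44 (-2.64 ± 0.063) were lower too. The interferon-induced Cmpk2 (-3.04 ± 0.060) and Rsad2 (-2.73 ± 0.057) are described with their group.

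**Figure D2:**
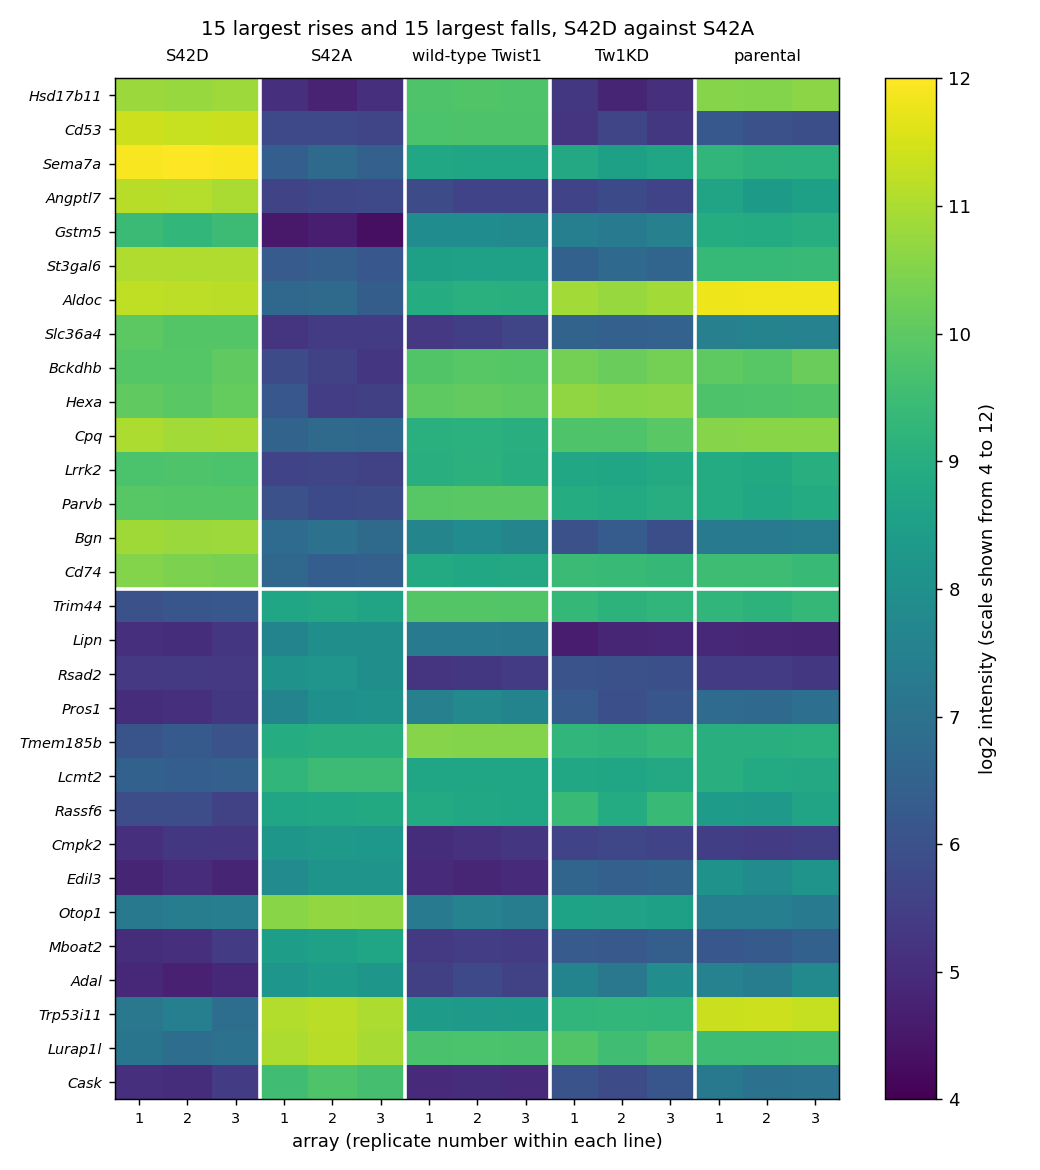
Log2 intensity (colour) of the 15 largest rises (upper block) and 15 largest falls (lower block) on each array, 3 arrays per line, with S42D and S42A at the left. The 3 arrays of a line look alike in each row, Hexa and Bckdhb are dark in the S42A line alone, and Angptl7 and Bgn are brightest in the S42D line.

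The 30 largest differences were also set against the 3 other lines. These genes were picked for the gap between the mutant lines, which favours means outside the range of the others. The counts describe these 30 genes, and no share over all genes was taken. Of the 15 rises, the S42D mean lay above the range of the wild-type Twist1, Tw1KD and parental means for 11, and the S42A mean lay below it for 12. For the 15 falls, the S42D mean lay below that range for 11 and the S42A mean above it for 11. In Tmem185b and Trim44 both mutant lines lay below it. In 11 of the 30 genes the lower of the mutant lines was dim, where the array background limits how large a measured fold can be. Some of the 30 lie beside another changed gene: by the gene order of the RefSeq table for GRCm38.p6, 9 have an adjacent measured gene called 2-fold or more in the same direction. These include Adal beside Lcmt2 and Cmpk2 beside Rsad2, pairs within the 30 that are counted from both sides. Others are Angptl7 next to Mtor (1.29 ± 0.044) and Rassf6 next to the chemokine gene Cxcl5 (-1.58 ± 0.084). The order is that of start positions, and whether neighbours overlap was not examined. The share of all genes with such a neighbour was not counted.

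All 3 TGF-beta ligand genes were higher in S42D cells. Tgfb2 read 8.70, 8.57 and 8.56 in S42D cells, against 7.46, 7.64 and 7.71 in S42A cells, and the difference was 1.01 ± 0.090 (2.01-fold, adjusted p = 4.9e-07). The parental mean was close to that of S42D cells, and the S42A mean lay between those of S42D and Tw1KD cells: the other lines averaged 7.12 ± 0.11 in the wild-type Twist1 line, 5.85 ± 0.13 in Tw1KD cells and 8.77 ± 0.14 in parental cells. A stretch of the Tgfb2 promoter that holds an E-box match is shown (RefSeq, GRCm38.p6, chr1:186706008-186706067, minus strand, bases 78 to 19 before the annotated start). The CANNTG match, here CACGTG, is in capitals, and which forms of CANNTG Twist1 prefers was not examined.
Tgfb2: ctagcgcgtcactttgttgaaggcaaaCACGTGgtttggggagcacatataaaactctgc
A match of CANNTG on either strand is found in the 250 bases before the start of 65.8% of 15613 promoters, and binding was not measured. Of 18 promoters of TGF-beta family ligands and latent carriers, 10 held one (55.6%). The form CAGATG, sought separately, was in 13.8% of all promoters and in 3 of those 18. Tgfb1 read 11.42, 11.41 and 11.43 in S42D cells, against 10.69, 10.72 and 10.78 in S42A cells (difference 0.69 ± 0.039), and Tgfb3 read 11.61, 11.68 and 11.67 in S42D cells, against 11.02, 11.03 and 11.10 in S42A cells (difference 0.61 ± 0.041). The groups overlapped for none of the 3 ligands, which was also so for 46.2% of all genes in either direction.

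Other ligands of the family differed more. Inhba, which encodes the subunit of activin A, read 10.57, 10.36 and 10.48 in S42D cells, against 7.74, 7.91 and 7.73 in S42A cells, a rise of 2.67 ± 0.099 (6.38-fold, adjusted p = 4.4e-11). The S42D and parental means were close for Inhba, and the lowest line was Tw1KD, with means of 8.15 ± 0.0039 in the wild-type Twist1 line, 6.37 ± 0.22 in Tw1KD cells and 10.50 ± 0.13 in parental cells. Bmp7, a bone morphogenetic protein, read 9.75, 9.72 and 9.88 in S42D cells, against 7.08, 7.17 and 7.12 in S42A cells (difference 2.66 ± 0.049). For Bmp7 the S42A line stood alone at the low end, the other lines averaging 9.84 ± 0.035 in the wild-type Twist1 line, 10.20 ± 0.063 in Tw1KD cells and 10.44 ± 0.0080 in parental cells. Among 25 ligands and latent carriers, 10 rose (40%, against 17.1% of all genes), 3 fell (12%, against 19.1%) and 12 were not called, with a median difference of 0.022 against -0.034 over all genes. The latent binding protein gene Ltbp2 (1.15 ± 0.049) and Lrrc32, whose product holds latent TGF-beta at the cell surface (0.68 ± 0.089), rose, and Gdf11 fell (-0.30 ± 0.059).

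Of 26 receptors and Smads, 12 rose (46.15%, against 17.1% of all genes), 3 fell (11.5%, against 19.1%) and 11 were not called (median 0.067). The co-receptor Tgfbr3, which presents TGF-beta2, read 11.49, 11.52 and 11.52 in S42D cells, against 9.90, 10.01 and 10.07 in S42A cells (difference 1.52 ± 0.049). Tgfbr2 rose by 0.37 ± 0.037 and Tgfbr1 fell by 0.17 ± 0.045, so the signalling receptors went opposite ways by small amounts. The transducer Smad3 (0.47 ± 0.036) and the repressors Skil (0.89 ± 0.060) and Smad6 (0.61 ± 0.049) rose. Smad7, the inhibitory Smad that TGF-beta induces, was at 9.50, 9.48 and 9.53 in S42D cells, against 9.52, 9.54 and 9.58 in S42A cells, and its difference of -0.04 ± 0.043 was not called (adjusted p = 0.51). The activin receptor gene Acvr2b fell (-0.36 ± 0.043).

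Of 24 TGF-beta response genes, 13 rose (54.2%, against 17.1% of all genes), 3 fell (12.5%, against 19.1%) and 8 were not called. Their median difference was 0.29. The integrin subunit Itgb5 read 12.29, 12.32 and 12.34 in S42D cells, against 10.78, 10.85 and 10.93 in S42A cells (difference 1.46 ± 0.043), and the matricellular genes Thbs1 (0.95 ± 0.042) and Ccn1 (0.95 ± 0.037) rose by similar amounts. The 3 that fell were Id3, Id1 and Acta2. Id3, an inhibitor of helix-loop-helix factors that bone morphogenetic proteins induce, read 7.16, 7.14 and 7.12 in S42D cells, against 8.42, 8.42 and 8.42 in S42A cells (difference -1.28 ± 0.082). Id1, of the same family, fell by 0.65 ± 0.051 and the smooth muscle actin gene Acta2 fell by 0.53 ± 0.058. For Id3 the S42D line stood below all others, which averaged 8.64 ± 0.12 in the wild-type Twist1 line, 8.42 ± 0.20 in Tw1KD cells and 8.46 ± 0.062 in parental cells.

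**Figure D3:**
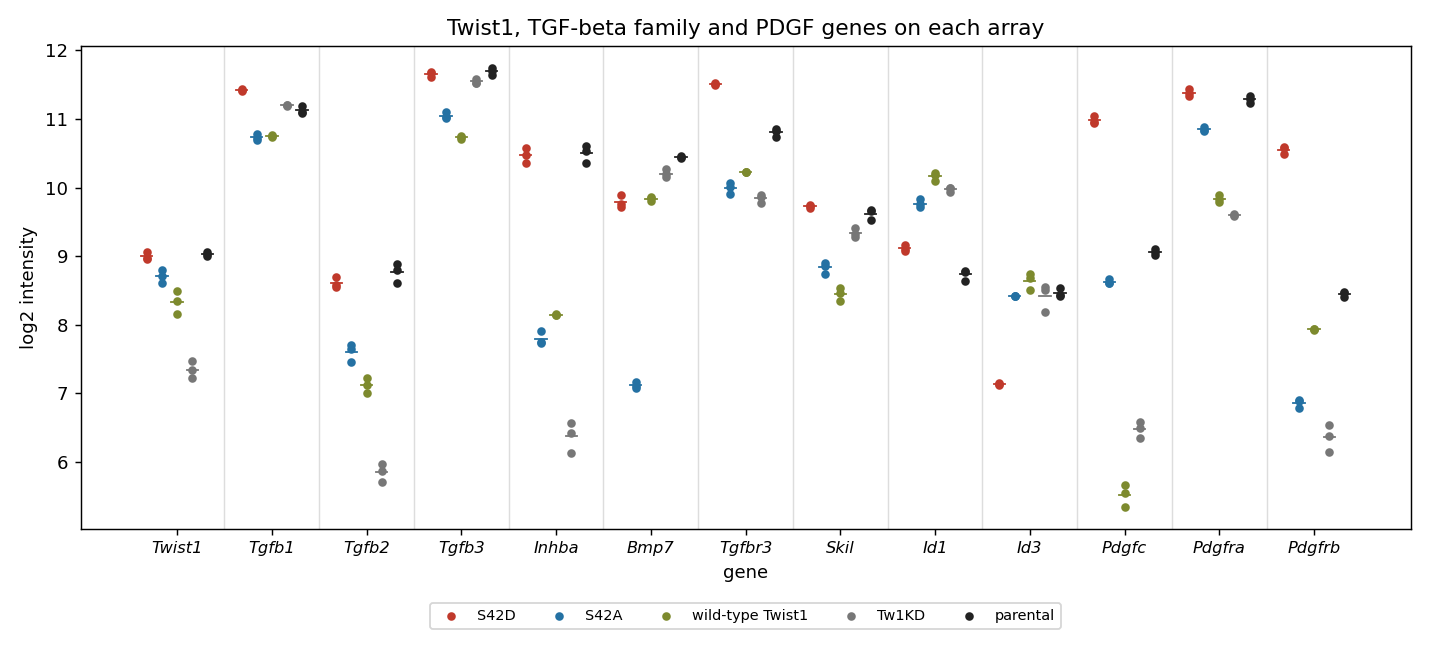
Log2 intensity of 13 genes on each array (points; short lines are means of 3 arrays), with S42D at the left of each gene, then S42A, wild-type Twist1, Tw1KD and parental. S42D points lie above S42A points for every gene shown except Id1 and Id3, and for Tgfb2 and Inhba they lie close to the parental points.

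Of 6 platelet-derived growth factor (PDGF) genes, Pdgfa, Pdgfb, Pdgfc, Pdgfra and Pdgfrb were higher in S42D cells, and Pdgfd was not called. Pdgfrb, a receptor of mesenchymal cells, read 10.49, 10.58 and 10.59 in S42D cells, against 6.90, 6.89 and 6.79 in S42A cells (difference 3.70 ± 0.076, 13.0-fold, adjusted p = 7.8e-14). The ligand gene Pdgfc read 11.04, 10.94 and 10.95 in S42D cells, against 8.60, 8.67 and 8.61 in S42A cells (difference 2.35 ± 0.073). Both were higher in S42D cells than in any other line: Pdgfrb averaged 7.93 ± 0.0095 in the wild-type Twist1 line, 6.36 ± 0.20 in Tw1KD cells and 8.45 ± 0.034 in parental cells, and Pdgfc averaged 5.52 ± 0.16 in the wild-type Twist1 line, 6.48 ± 0.11 in Tw1KD cells and 9.06 ± 0.045 in parental cells. Pdgfra, reported as a Twist1 target, rose by 0.53 ± 0.043. Of 29 growth factor ligands and receptors, 11 rose (37.9%, against 17.1% of all genes), 3 fell (10.3%, against 19.1%) and 15 were not called. The list's median was 0.11. Fgfr1 read 8.56, 8.32 and 8.38 in S42D cells, against 7.02, 6.86 and 6.89 in S42A cells (difference 1.50 ± 0.074). The receptor gene of hepatocyte growth factor, Met (-0.67 ± 0.046), the stem cell factor gene Kitl (-1.01 ± 0.051) and Fgfr3 (-0.24 ± 0.057) fell.

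Genes that ERK signalling induces, most of them feedback brakes on it, rose for 13 of 21 members (61.9%, against 17.1% of all genes). Of the rest, 1 was lower (4.76%, against 19.1%) and 7 were not called. The list's median was 0.23. Egr1, an immediate early factor, read 9.81, 9.78 and 9.69 in S42D cells, against 8.10, 8.11 and 8.02 in S42A cells (difference 1.69 ± 0.049), and the Sprouty gene Spry1 read 12.05, 12.05 and 12.04 in S42D cells, against 10.81, 10.81 and 10.80 in S42A cells (difference 1.25 ± 0.057). Egr1 was low in the S42A line alone, with other means of 9.43 ± 0.024 in the wild-type Twist1 line, 9.12 ± 0.083 in Tw1KD cells and 9.69 ± 0.026 in parental cells. Etv5 rose as well (0.75 ± 0.042), and the phosphatase gene Dusp4 fell (-0.28 ± 0.039).

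PI3K-Akt components went both ways, with 14 of 38 higher (36.8%, against 17.1% of all genes) and 11 lower (28.95%, against 19.1%). The list's median was 0.021, and 13 were not called. The kinase genes Akt1 (-0.17 ± 0.036) and Akt2 (-0.19 ± 0.035) fell by small amounts. Inpp5d, the lipid phosphatase SHIP1, read 9.04, 8.86 and 8.94 in S42D cells, against 7.25, 7.49 and 7.33 in S42A cells (difference 1.59 ± 0.061), and the PI3K inhibitor gene Pik3ip1 read 9.39, 9.31 and 9.35 in S42D cells, against 8.02, 8.04 and 7.94 in S42A cells (difference 1.35 ± 0.047). Mtor, the kinase downstream of Akt, rose by 1.29 ± 0.044, and is next to Angptl7 in gene order, as given above. The regulatory subunit gene Pik3r3 read 6.06, 6.19 and 6.09 in S42D cells, against 7.78, 8.06 and 7.81 in S42A cells (difference -1.77 ± 0.085), and the adaptor gene Irs1 fell by 0.70 ± 0.061. FoxO targets are genes that Akt signalling is known to lower through FoxO factors. Of 19, 8 rose (42.1%, against 17.1% of all genes), 3 fell (15.8%, against 19.1%) and 8 were not called (median 0.026). Among them were Txnip (1.06 ± 0.036), which restrains glucose uptake, and Gadd45a (1.07 ± 0.064), a growth arrest gene, both higher.

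Of 39 epithelial genes, 16 rose (41.0%, against 17.1% of all genes) and 1 fell (St14, -0.37 ± 0.060, or 2.56% against 19.1%). Another 22 were not called, and the list's median was 0.078. With median centring 5 members were lower in place of 1. Perp, a desmosomal protein, read 8.94, 8.81 and 8.89 in S42D cells, against 5.20, 5.30 and 5.03 in S42A cells (difference 3.70 ± 0.091, 13.0-fold against a dim S42A signal), and the keratin gene Krt19 read 8.68, 8.55 and 8.64 in S42D cells, against 6.24, 5.96 and 5.83 in S42A cells (difference 2.62 ± 0.081). The tight junction genes Lsr (2.17 ± 0.058) and Ocln (1.97 ± 0.078) rose too. Cdh1, which encodes E-cadherin, read 7.58, 7.46 and 7.46 in S42D cells, against 6.41, 6.26 and 6.33 in S42A cells (difference 1.17 ± 0.045, adjusted p = 6.6e-11). In S42D cells Perp, Krt19 and Cdh1 lay below the Tw1KD level, where Perp averaged 10.43 ± 0.15, Krt19 11.10 ± 0.020 and Cdh1 11.46 ± 0.0027. The wild-type Twist1 line averaged 6.70 ± 0.13, 8.74 ± 0.058 and 8.52 ± 0.0034 for these genes, and S42A cells lay below it for each. S42D cells were above the wild-type line for Perp, not called against it for Krt19, and below it for Cdh1 (-1.02 ± 0.045). Against Tw1KD cells, 22 of the 39 epithelial genes were lower and 4 higher in S42D cells, and 28 were lower and 1 higher in S42A cells; these comparisons share the Tw1KD arrays, and 21.7% of all genes were called lower in S42D cells and 19.7% in S42A cells.

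Of 28 mesenchymal markers, 11 were higher (39.3%, against 17.1% of all genes), 2 lower (7.14%, against 19.1%) and 15 not called. The list's median was 0.054, and 7 were lower with median centring. The collagen VI chains led besides Pdgfrb: Col6a2 read 10.17, 10.08 and 10.20 in S42D cells, against 7.73, 7.69 and 7.71 in S42A cells (difference 2.44 ± 0.062), and Col6a1 read 11.84, 11.90 and 11.86 in S42D cells, against 9.81, 9.83 and 9.83 in S42A cells (difference 2.04 ± 0.056). Fn1, which encodes fibronectin, rose by 0.35 ± 0.037. Postn, a matricellular protein gene, fell by 0.74 ± 0.080 at low level, and Acta2 fell as given above. The intermediate filament gene Vim was at 13.49, 13.54 and 13.50 in S42D cells, against 13.50, 13.49 and 13.50 in S42A cells, and its difference of 0.02 ± 0.033 was not called (adjusted p = 0.79). Cdh2, the gene of N-cadherin, was dim in both lines (4.50 ± 0.046 in S42D cells, 4.59 ± 0.046 in S42A cells) and not called. Of the fibroblast markers given above 2 rose and 1 fell, and their part in these counts was not tested.

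The transcription factors of EMT and their partners went both ways. Of 30, 10 rose (33.3%, against 17.1% of all genes), 5 fell (16.7%, against 19.1%) and 15 were not called, with a median of 0.0092. Zeb2 (0.36 ± 0.046) and Zeb1 (0.28 ± 0.058), repressors of E-cadherin, rose by small amounts, Zeb1 with a dim signal in S42A cells. Snai1 (0.08 ± 0.054) and Snai2 (-0.05 ± 0.064) were not called. Grhl2, a factor that maintains the epithelial state, read 7.67, 7.63 and 7.63 in S42D cells, against 5.86, 5.84 and 6.15 in S42A cells (difference 1.69 ± 0.086), and S42A was again the low line beside means of 7.86 ± 0.11 in the wild-type Twist1 line, 7.97 ± 0.11 in Tw1KD cells and 7.44 ± 0.10 in parental cells. The epithelial factor gene Elf3 fell (-0.67 ± 0.070). Among 23 genes reported as Twist1 targets, 9 rose (39.1%, against 17.1% of all genes), 5 fell (21.7%, against 19.1%) and 9 were not called. Pdgfrb, Fgfr1 and Cdh1 were the largest rises, and the surface marker gene Cd24a (-1.0 ± 0.067) was among the falls.

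Of 43 matrix genes, 20 rose (46.5%, against 17.1% of all genes), 4 fell (9.30%, against 19.1%) and 19 were not called. The list's median was 0.12, and 7 were lower with median centring. Bgn, which encodes the proteoglycan biglycan, read 10.85, 10.80 and 10.82 in S42D cells, against 6.80, 6.99 and 6.76 in S42A cells (difference 3.98 ± 0.094, 15.7-fold), and the S42D line stood above the other lines, at 7.71 ± 0.12 in the wild-type Twist1 line, 6.08 ± 0.22 in Tw1KD cells and 7.32 ± 0.064 in parental cells. Ogn, a further small proteoglycan gene, read 9.22, 9.07 and 8.89 in S42D cells, against 6.64, 6.95 and 7.07 in S42A cells (difference 2.17 ± 0.11). Against these, the collagen cross-linking enzyme gene Loxl4 read 10.24, 10.35 and 10.37 in S42D cells, against 12.11, 12.13 and 12.17 in S42A cells (difference -1.82 ± 0.042), and Col12a1 (-0.86 ± 0.058) and Dpt (-0.63 ± 0.12) fell.

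Of 34 proteases and inhibitors, 16 rose (47.1%, against 17.1% of all genes), 4 fell (11.8%, against 19.1%) and 14 were not called (median 0.13). Mmp9, the type IV collagenase, read 10.79, 10.70 and 10.70 in S42D cells, against 7.10, 7.19 and 7.35 in S42A cells (difference 3.52 ± 0.057, 11.4-fold, adjusted p = 9.9e-15). Both plasminogen activator genes rose: Plat read 10.54, 10.54 and 10.48 in S42D cells, against 8.26, 8.29 and 8.29 in S42A cells (difference 2.24 ± 0.091), and Plau read 11.64, 11.62 and 11.63 in S42D cells, against 9.80, 9.85 and 9.91 in S42A cells (difference 1.78 ± 0.050). Mmp9 was lowest in the S42A line, beside means of 8.70 ± 0.052 in the wild-type Twist1 line, 10.96 ± 0.038 in Tw1KD cells and 11.53 ± 0.029 in parental cells. Mmp1b (-1.68 ± 0.14) and Adamts1 (-1.35 ± 0.084) fell.

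Of integrins, laminins and related adhesion genes, 18 of 34 rose (52.9%, against 17.1% of all genes) and 4 fell (11.8%, against 19.1%). Another 12 were not called. The list's median was 0.16, and 7 were lower with median centring. Itgb2, the shared beta subunit of leukocyte integrins, read 11.73, 11.78 and 11.80 in S42D cells, against 8.74, 8.87 and 8.87 in S42A cells (difference 2.94 ± 0.049). Itga7, a laminin-binding subunit, read 9.41, 9.56 and 9.52 in S42D cells, against 6.80, 7.01 and 6.85 in S42A cells (difference 2.61 ± 0.070), and Itga10, which binds collagen, rose by 2.23 ± 0.073. Vcam1, a ligand of integrins, read 9.04, 8.85 and 9.07 in S42D cells, against 10.57, 10.55 and 10.58 in S42A cells and fell (-1.58 ± 0.060).

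Of 34 guidance genes, 15 rose (44.1%, against 17.1% of all genes), 6 fell (17.65%, against 19.1%) and 13 were not called (median 0.11). Besides Sema7a, the receptor gene Plxna4 read 10.23, 10.28 and 10.21 in S42D cells, against 7.10, 6.96 and 6.61 in S42A cells (difference 3.35 ± 0.10), and the secreted semaphorin gene Sema3b rose by 2.16 ± 0.061. Endothelial markers did not follow Cdh5, the gene of VE-cadherin, which read 10.66, 10.70 and 10.65 in S42D cells, against 7.27, 7.18 and 7.34 in S42A cells (difference 3.41 ± 0.087): Flt1 (-0.34 ± 0.081) and Esam (-0.29 ± 0.088) fell, and 9 of the 12 were not called. The other lines averaged 6.35 ± 0.048 in the wild-type Twist1 line, 5.99 ± 0.12 in Tw1KD cells and 5.66 ± 0.21 in parental cells for Cdh5.

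Cytokines, chemokines and their receptors were divided, with 18 of 44 higher (40.9%, against 17.1% of all genes) and 8 lower (18.2%, against 19.1%). Another 18 were not called. The list's median was 0.015, and 13 were lower with median centring. Cxcl16 read 8.68, 8.56 and 8.63 in S42D cells, against 6.31, 5.99 and 5.74 in S42A cells (difference 2.61 ± 0.11), and the alarmin gene Il33 read 10.65, 10.58 and 10.53 in S42D cells, against 8.30, 8.45 and 8.49 in S42A cells (difference 2.17 ± 0.14). Il18, a cytokine that inflammasomes activate, rose by 2.08 ± 0.13. Csf2, which encodes GM-CSF, read 7.28, 6.81 and 6.36 in S42D cells, against 5.03, 5.11 and 4.92 in S42A cells (difference 1.79 ± 0.17), with the widest spread of these among S42D arrays and a dim S42A signal. The neutrophil attractant gene Cxcl5 read 6.74, 6.55 and 6.72 in S42D cells, against 8.10, 8.33 and 8.31 in S42A cells (difference -1.58 ± 0.084). Ccl5 (-1.26 ± 0.062) and Cxcl10 (-1.17 ± 0.11), both known as interferon-inducible, fell.

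Interferon-stimulated effector genes fell in most members. Of 43 members, 35 were lower in S42D cells (81.4%, against 19.1% of all genes), 4 higher (9.30%, against 17.1%) and 4 not called. The median difference was -0.57. Over all genes 0.933% fell 2-fold or more, and of the effector genes 13 did. These genes encode antiviral proteins, and type I interferon switches many of them on through a promoter element made of GAAA repeats. The 4 genes that rose were Ifit2, Ifih1, Isg20 and Trim30a. Several of these families (Ifit, Oas, Gbp) hold close relatives that probes may not separate fully.

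The element is shown for 4 members that fell, as 60 bases of promoter each (RefSeq, GRCm38.p6), with matches to GAAA, any 2 bases and GAAA again, or on the other strand TTTC, any 2 bases and TTTC, in capitals. Rsad2 is chr12:26456538-26456597 (minus strand), Ifit1 chr19:34640779-34640838 (plus), Gbp3 chr3:142559980-142560039 (plus) and Oas1a chr5:120907526-120907585 (minus).
Rsad2: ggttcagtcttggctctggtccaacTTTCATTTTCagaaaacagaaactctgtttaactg
Ifit1: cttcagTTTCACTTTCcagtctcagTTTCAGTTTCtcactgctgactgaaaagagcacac
Gbp3: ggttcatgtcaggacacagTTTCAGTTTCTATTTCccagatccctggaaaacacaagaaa
Oas1a: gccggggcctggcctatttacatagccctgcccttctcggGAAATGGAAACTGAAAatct
In Gbp3 and Oas1a the capitals hold 2 overlapping matches. In the 250 bases before the start, 11 of 30 effector genes with a promoter in the table held the element (36.7%), against 531 of 15613 promoters (3.4%). A match describes the letters in this window and not binding.

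Rsad2, the antiviral enzyme viperin, read 5.34, 5.36 and 5.33 in S42D cells, against 8.08, 8.18 and 7.97 in S42A cells (difference -2.73 ± 0.057, adjusted p = 8.7e-14). Its neighbour Cmpk2 read 5.12, 5.29 and 5.26 in S42D cells, against 8.24, 8.30 and 8.25 in S42A cells (difference -3.04 ± 0.060). The S42D values of both were dim. S42A was the high line for both, and S42D was at the level of wild-type Twist1 and parental cells, since Rsad2 averaged 5.30 ± 0.082 in the wild-type Twist1 line, 5.99 ± 0.048 in Tw1KD cells and 5.37 ± 0.058 in parental cells and Cmpk2 averaged 5.14 ± 0.11 in the wild-type Twist1 line, 5.64 ± 0.045 in Tw1KD cells and 5.45 ± 0.063 in parental cells. Ifit1, which binds foreign RNA, read 7.42, 7.25 and 7.23 in S42D cells, against 9.32, 9.55 and 9.40 in S42A cells (difference -2.13 ± 0.10). Usp18, which shuts off the interferon receptor, read 8.32, 8.18 and 8.26 in S42D cells, against 10.42, 10.59 and 10.51 in S42A cells (difference -2.26 ± 0.069). Oasl1 (-2.33 ± 0.064), Gbp3 (-1.82 ± 0.16) and Oas1a (-1.19 ± 0.14) fell as well. Gbp3 read 5.98, 5.76 and 5.75 in S42D cells, against 7.39, 7.43 and 8.12 in S42A cells, 1 S42A array being higher than the rest.

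Against the wild-type Twist1 line, which both comparisons share, 33 of the 43 effector genes were higher and 2 lower in S42D cells (median 0.85), and 42 were higher and none lower in S42A cells (median 1.50). Over all genes, 20.7% were called higher in S42D cells and 20.0% in S42A cells. By these counts both mutant lines stood above the wild-type line in most of these genes. Set against Tw1KD cells, 22 were higher and 8 lower in S42D cells (median 0.20), and 39 were higher and 1 lower in S42A cells (median 1.12). For that reference, 21.7% of all genes were called higher in S42D cells and 22.8% in S42A cells. The distance of S42D cells thus depended on the reference line. Ifih1, a sensor of double-stranded RNA, went against the group and read 8.52, 8.41 and 8.43 in S42D cells, against 7.37, 7.51 and 7.43 in S42A cells (difference 1.02 ± 0.073), as did the nuclease gene Isg20 (0.87 ± 0.049).

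The regulators of the pathway were mixed. Of 32, 11 rose (34.4%, against 17.1% of all genes), 10 fell (31.25%, against 19.1%) and 11 were not called (median -0.032). Irf7, the factor that amplifies interferon production, read 7.70, 7.48 and 7.61 in S42D cells, against 9.83, 9.97 and 10.01 in S42A cells (difference -2.35 ± 0.13), and the kinase gene Jak2 read 9.28, 9.12 and 9.23 in S42D cells, against 10.99, 11.01 and 10.97 in S42A cells (difference -1.78 ± 0.058). Irf9 (-0.64 ± 0.040) fell too. The receptor genes Tlr2 (1.64 ± 0.13) and Ifngr1 (1.27 ± 0.081) rose, as did Socs3 (0.99 ± 0.054), a feedback inhibitor of cytokine receptors. Antigen presentation genes of MHC class I were higher for 7 of 14 (50%, against 17.1% of all genes). They were lower for 2 (14.3%, against 19.1%) and not called for 5 (median 0.15). The proteasome subunit gene Psmb8 fell (-0.92 ± 0.12), and the non-classical H2-M3 rose (1.27 ± 0.052). Of 13 inflammatory caspase and inflammasome genes, 5 rose (38.5%, against 17.1% of all genes), 1 fell (7.69%, against 19.1%) and 7 were not called. Naip5 (1.80 ± 0.090, 1 of a set of near copies), the DNA sensor gene Aim2 (1.48 ± 0.10) and Casp4 (1.24 ± 0.085) were higher. Casp1 was lower (-0.76 ± 0.097).

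Sterol and fatty acid synthesis genes were lower in S42D cells for 25 of 30 members (83.3%, against 19.1% of all genes). Of the rest, 4 were higher (13.3%, against 17.1%) and 1 was not called. The list's median was -0.51. Over all genes 0.933% fell 2-fold or more, and of the list 6 did. Most of these enzymes are under SREBP factors, which act with the CCAAT-binding factor NF-Y at many sterol promoters. Cyp51, which removes a methyl group from lanosterol, read 8.47, 8.41 and 8.44 in S42D cells, against 10.15, 10.22 and 10.23 in S42A cells (difference -1.76 ± 0.096, 3.38-fold lower, adjusted p = 2.8e-09). Idi1, which makes an isoprenoid building block, read 9.45, 9.29 and 9.31 in S42D cells, against 11.05, 11.02 and 11.03 in S42A cells (difference -1.68 ± 0.080), and Hsd17b7, a late enzyme of the pathway, read 9.37, 9.19 and 9.25 in S42D cells, against 10.58, 10.69 and 10.67 in S42A cells (difference -1.38 ± 0.053). For these genes S42A was at the wild-type Twist1 level and S42D lay below it: Cyp51 averaged 10.16 ± 0.030 in the wild-type Twist1 line, 7.98 ± 0.28 in Tw1KD cells and 8.71 ± 0.038 in parental cells, and Idi1 averaged 11.05 ± 0.045 in the wild-type Twist1 line, 8.69 ± 0.22 in Tw1KD cells and 9.91 ± 0.010 in parental cells.

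CCAAT boxes are shown for these 3 genes, as the last 60 bases before the annotated start (RefSeq, GRCm38.p6), with CCAAT or its complement ATTGG in capitals. Cyp51 is chr5:4104698-4104757 (minus strand), Idi1 chr13:8885546-8885605 (plus) and Hsd17b7 chr1:169969206-169969265 (minus).
Cyp51: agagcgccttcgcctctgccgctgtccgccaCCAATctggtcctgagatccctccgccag
Idi1: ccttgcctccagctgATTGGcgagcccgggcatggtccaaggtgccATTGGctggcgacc
Hsd17b7: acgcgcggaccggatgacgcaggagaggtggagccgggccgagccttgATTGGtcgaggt
The letters were found in 19 of 23 sterol list promoters (82.6%) and in 38.8% of all 15613. Interferon effector promoters held them at 36.7%. Against the wild-type Twist1 line, 21 of the 30 genes were lower and 3 higher in S42D cells (median -0.54), and 10 were lower and 6 higher in S42A cells (median -0.012), where 22.6% of all genes were called lower in S42D cells and 20.0% in S42A cells. Sqle, a rate-limiting oxidase, fell by 1.18 ± 0.053. The 4 genes that rose were Tm7sf2 (0.85 ± 0.080), a sterol reductase gene, Ebp (0.50 ± 0.062), Insig2 (0.33 ± 0.038) and Srebf1.

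Mitosis genes fell by small amounts, 27 of 35 being lower (77.1%, against 19.1% of all genes). Of the rest, 1 was higher (2.86%, against 17.1%) and 7 were not called. The list's median was -0.23, with no change of 2-fold. The spindle kinase gene Aurka read 10.67, 10.64 and 10.66 in S42D cells, against 11.51, 11.50 and 11.55 in S42A cells (difference -0.86 ± 0.039), and the checkpoint kinase gene Ttk read 8.88, 8.84 and 8.75 in S42D cells, against 9.36, 9.46 and 9.46 in S42A cells (difference -0.60 ± 0.095). The single rise was that of Pttg1, the securin gene (0.21 ± 0.053), which was not called with median centring. Against Tw1KD cells, however, 34 of the 35 were higher and none lower in S42D cells and likewise in S42A cells, and the 2 comparisons share the Tw1KD arrays, with 21.7% of all genes called higher in S42D cells and 22.8% in S42A cells. CCAAT boxes stood in 21 of 28 mitosis promoters (75%), and the letters of the cell cycle homology region, TTTGAA, in 10 (35.7%, against 15.7% of all promoters). DNA replication genes were lower for 15 of 33 (45.45%, against 19.1% of all genes). They were higher for 6 (18.2%, against 17.1%) and not called for 12 (median -0.16). Ccne1, the cyclin of S-phase entry, read 9.69, 9.62 and 9.71 in S42D cells, against 10.87, 10.92 and 10.83 in S42A cells (difference -1.20 ± 0.053). D cyclins and cell cycle inhibitors gave 3 rises (20%, against 17.1% of all genes), 4 falls (26.7%, against 19.1%) and 8 without a call among 15. Among 26 p53 response genes, 6 rose (23.1%), 6 fell (23.1%) and 14 were without a call, with Trp53inp1 the largest fall (-1.36 ± 0.073).

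Respiratory chain genes and their coactivators were lower for 22 of 32 members (68.8%, against 19.1% of all genes). They were higher for 4 (12.5%, against 17.1%) and not called for 6 (median -0.22). Ppargc1a, which encodes the coactivator PGC-1 alpha, read 9.0, 8.94 and 8.86 in S42D cells, against 11.27, 11.30 and 11.25 in S42A cells (difference -2.34 ± 0.11, 5.05-fold lower). Both mutant lines lay above the other lines, which averaged 5.51 ± 0.26 in the wild-type Twist1 line, 7.23 ± 0.061 in Tw1KD cells and 5.53 ± 0.21 in parental cells. Idh3a, an enzyme of the citric acid cycle, fell by 0.80 ± 0.067 and the cytochrome oxidase subunit gene Cox5a fell by 0.66 ± 0.046. The coactivator gene Ppargc1b rose a little (0.16 ± 0.041), a call that median centring ended.

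Hypoxia and glycolysis genes did not move together. Of 32, 8 were higher (25%, against 17.1% of all genes), 13 lower (40.6%, against 19.1%) and 11 not called (median -0.074). The pH-regulating carbonic anhydrase gene Car12 read 11.57, 11.51 and 11.51 in S42D cells, against 8.66, 8.75 and 8.77 in S42A cells (difference 2.80 ± 0.049), Car9 read 10.23, 10.12 and 10.20 in S42D cells, against 8.05, 8.22 and 8.41 in S42A cells (difference 1.95 ± 0.076), and Aldoc rose as given above. Glycolytic genes such as Pfkfb3 (-0.58 ± 0.076) fell by less. Glutathione and oxidant defence genes were higher for 6 of 27 (22.2%, against 17.1% of all genes). They were lower for 12 (44.4%, against 19.1%) and not called for 9 (median -0.11). Hmox1, which degrades haem, read 7.73, 7.81 and 7.70 in S42D cells, against 9.04, 9.10 and 9.16 in S42A cells (difference -1.36 ± 0.047), and Mgst1 fell by 1.07 ± 0.073.

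Stress genes rose in part. Amino acid stress genes under ATF4 were higher for 14 of 30 (46.7%, against 17.1% of all genes). They were lower for 3 (10%, against 19.1%) and not called for 13. The list's median was 0.12, and 8 were lower with median centring. Nupr1 rose (1.15 ± 0.045), and the stress factor gene Atf3 fell (-1.05 ± 0.066). Endoplasmic reticulum chaperones were higher for 12 of 21 (57.1%, against 17.1% of all genes). They were lower for 2 (9.52%, against 19.1%) and not called for 7 (median 0.16). None changed by 2-fold, the transcription factor gene Xbp1 (0.54 ± 0.048) being among the larger rises.

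The remaining lists were called in both directions. Wnt genes were higher for 2 of 31 (6.45%, against 17.1% of all genes), lower for 3 (9.68%, against 19.1%) and not called for 26, and Wnt10a (1.42 ± 0.054) was the largest. Insulin-like growth factor genes were higher for 4 of 12 (33.3%, against 17.1% of all genes) and lower for 2 (16.7%, against 19.1%). Igfbp7 (1.25 ± 0.087) led the rises. Angiopoietin, VEGF and Notch genes were higher for 9 of 24 (37.5%, against 17.1% of all genes). They were lower for 6 (25%, against 19.1%) and not called for 9. Stem and mammary lineage markers were higher for 6 of 29 (20.7%, against 17.1% of all genes) and lower for 6 (20.7%, against 19.1%). Both shares were close to those of all genes, and the estrogen receptor gene Esr1 (1.16 ± 0.055) was among the higher members. Housekeeping genes were higher for none of 11 by limma and lower for 3 (Hprt, Sdha, Pgk1), or 27.3% against 19.1% of all genes. Their median was -0.0035, and 5 were lower with median centring. The shares of all lists stand side by side in the bar chart, and the members of 7 lists in the strip plot.

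**Figure D4:**
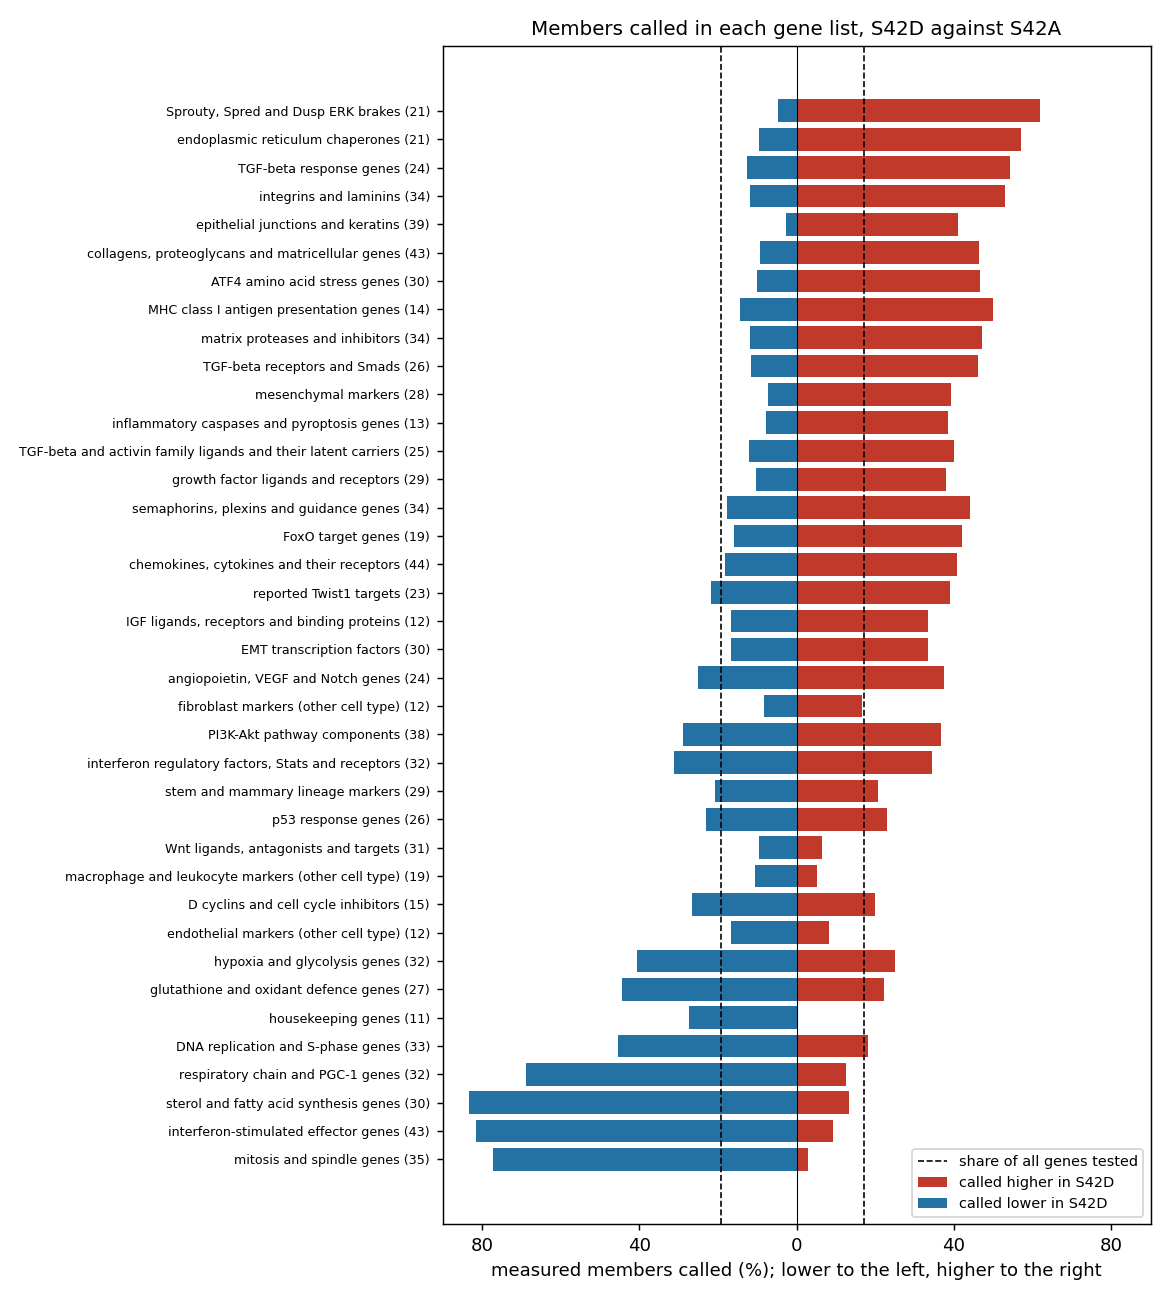
Share of measured members called higher (right, red) and lower (left, blue) in S42D for 38 gene lists, with the number of measured members in parentheses; dashed lines give the share over all genes tested (17.1% and 19.1%). The 4 lowest bars, for mitosis, interferon effector, sterol and respiratory chain genes, reach 68.8% to 83.3% lower.

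**Figure D5:**
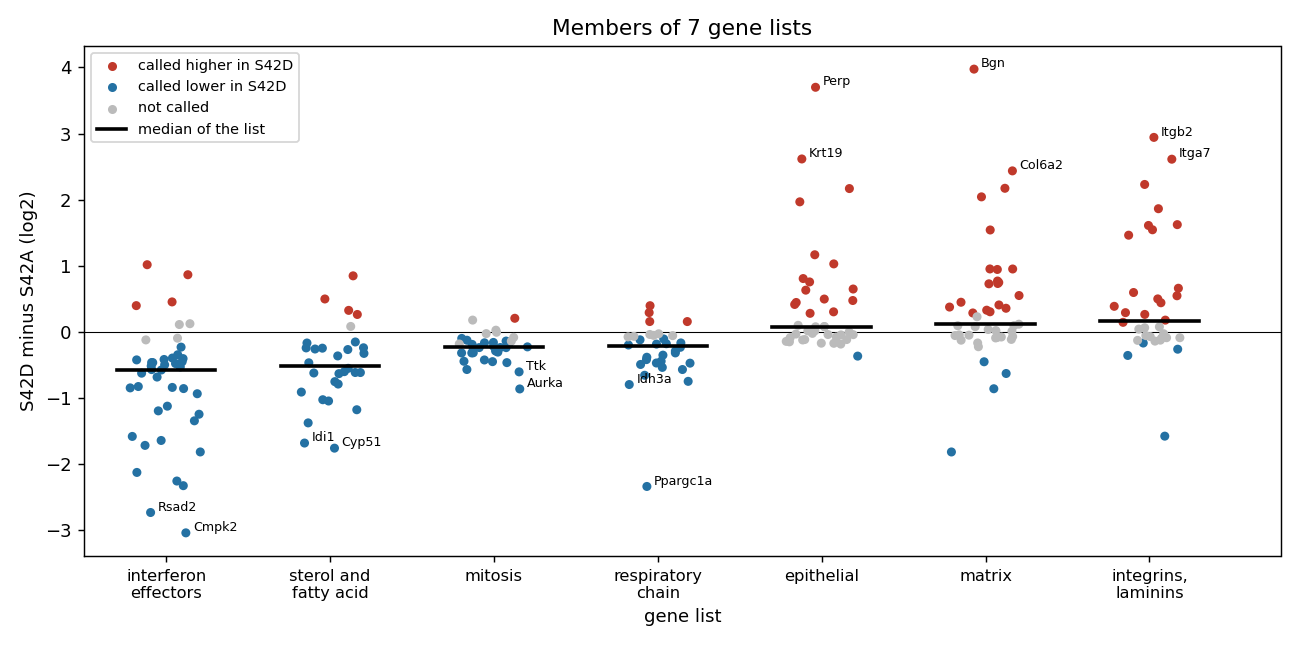
Difference of each member (S42D minus S42A, log2, points coloured by call) in 7 gene lists, with the list's median as a line. Interferon effector and sterol genes spread downwards from medians of -0.57 and -0.51, mitosis and respiratory chain genes gather just below 0, and epithelial, matrix and adhesion genes spread upwards.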

How the data were processed

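The authors deposited 1 log2 intensity per probe set and array; the unit was read from the values. R 2.10.0 and the affy package are listed without a role, per the submitters' processing notes; how background, scaling and summary were handled is not given in the sources used here. Scaling between arrays, if done, removes any change common to all transcripts. Of 34760 probe sets, 21640 carried 1 symbol, 1321 several and 11799 none; 21553 were matched by gene number to the RefSeq table of GRCm38.p6. The brightest probe set stood for a gene, giving 19937 genes. All 15 arrays were fitted in limma 3.58.1 (R 4.3.3) with a mean per line and no dim filter, contrast S42D minus S42A, 2-sided, adjusted p under 0.05. The steps were tested on simulated data. Motifs were sought on both strands in 250 bases before each start. Genes named are the 15 largest non-overlapping changes per direction, up to 3 per list and direction, and a short fixed set. Ccn1, Cox5a, Csf2, Gbp3, Ifit1, Lrrc32, Oas1a, Ocln, Sqle and Usp18 were named after their values were seen. The comparison and the 38 lists (1090 entries, 1025 measured) were chosen with earlier results of these data known. Alternatives covered scaling, dim genes, arrays fitted, a replicate term, array weights, the prior, probe sets and leaving out each array.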

Additional observations from a re-analysis of the deposited data

How the results depend on the processing

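Calls were recounted under 15 other settings, and the count of lower genes with each array centred on its median moved by over 1.5 times: 6099 lower, with 2615 higher and a median difference of -0.112, against 3805 lower, 3400 higher and -0.0345 on the deposited scale. The cause was not tested. Elsewhere 6525 to 9704 genes were called: 7825 with quantile normalization, 7262 of 14953 without genes below the first quartile of gene means, 7020 with the 6 arrays alone, 9704 with array weights, 7469 with an intensity trend and robust prior, 7202 with the mean of probe sets and 8881 over all probe sets. Leaving out 1 array gave 6525 to 6805 called, 3072 to 3266 higher, 3375 to 3672 lower and 606 to 638 at 2-fold or more. With the replicate block 7028 were called, 6944 of them among the 7205; same-numbered arrays deviated with correlations of -0.39, -0.081 and -0.22, so the numbers do not pair the arrays. Among 228 named genes, 216 kept their side of the threshold in every setting run (14 for 222 genes and 13 for 6 that the quartile filter removed), and no called gene changed sign; the 12 others were Cdh2 (called lower with median centring), Esam, Igf2, Lamb3, Lyz2, Ppargc1b, Pttg1, Rb1, Rbl2, Smad9, Tfam and Twist1. Of list counts, 63 of 1064 moved by over 1.5 times, nearly all of them counts of few genes. Of the 30 largest changes, 11 had the lower line below that quartile.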

Other observations

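Genes in these paragraphs were picked after their values were seen, so their p-values are descriptions; each adjusted p is limma's over all genes.

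Of 19 leukocyte markers 1 rose (5.26%, against 17.1% of all genes), 2 fell (10.5%, against 19.1%) and 16 were not called. Some other genes best known from leukocytes, picked for their size, were higher in S42D than in S42A cells. Cd28, a T cell co-receptor, read 11.47, 11.42 and 11.43 in S42D cells, against 8.27, 8.29 and 8.30 in S42A cells (difference 3.15 ± 0.079). Mcpt8, a protease gene of basophils, read 9.79, 9.75 and 9.70 in S42D cells, against 6.53, 6.74 and 6.71 in S42A cells (difference 3.09 ± 0.13), and Il2rb, a cytokine receptor chain, rose by 1.98 ± 0.071. The S42D arrays were above all S42A arrays for each, which follows from the pick by size, and 46.2% of all genes did not overlap in either direction. Lsp1 (2.55 ± 0.048), Samsn1 (2.21 ± 0.077) and the complement receptor gene C5ar2 (2.44 ± 0.11) were higher than in S42A cells too, but parental cells were at 9.73 ± 0.026 for Lsp1 and 8.69 ± 0.12 for Samsn1, beside 9.69 ± 0.011 and 8.16 ± 0.090 in S42D cells. The pan-leukocyte gene Ptprc was dim in both lines and not called (-0.12 ± 0.065), and 10 of 19 leukocyte markers were dim in S42D cells and 10 in S42A cells.

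The coagulation inhibitor genes Tfpi and Pros1 went opposite ways. Tfpi, the inhibitor of the tissue factor pathway, read 10.39, 10.24 and 10.20 in S42D cells, against 6.68, 6.86 and 6.72 in S42A cells (difference 3.52 ± 0.10), and Pros1, a cofactor of protein C, read 5.04, 5.09 and 5.29 in S42D cells, against 7.59, 8.0 and 8.07 in S42A cells (difference -2.75 ± 0.12). The tissue factor gene F3 was not called (-0.16 ± 0.086). The branched-chain ketoacid dehydrogenase, an enzyme complex of several subunits, was split in the same way: Bckdhb was higher (4.39 ± 0.11), Bckdha a little higher (0.23 ± 0.051) and Dbt lower (-1.79 ± 0.051). Among sialyltransferases, St3gal6 was higher (4.75 ± 0.067) and St6galnac2 lower (-2.23 ± 0.077). Of hedgehog genes, the ligand gene Dhh rose (1.95 ± 0.057) and the ligand-binding Hhip fell (-1.94 ± 0.11), while the pathway's target genes Ptch1 (0.03 ± 0.046) and Gli1 (0.01 ± 0.067) were not called. Dmp1, a gene of mineralised matrix, read 10.07, 9.97 and 9.97 in S42D cells, against 7.07, 7.11 and 6.96 in S42A cells (difference 2.96 ± 0.077).

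Of 296 miRNA genes measured, 19 were higher (6.42%, against 17.1% of all genes) and 5 lower (1.69%, against 19.1%) in S42D cells. The host gene Mir100hg and 3 miRNA genes that lie in it, Mir100, Mirlet7a-2 and Mir125b-1, were all among the higher ones. Mir100 read 6.37, 7.06 and 5.58 in S42D cells, against 5.26, 4.96 and 4.94 in S42A cells (difference 1.28 ± 0.26, adjusted p = 0.0012), and Mir125b-1 read 7.39, 7.02 and 6.39 in S42D cells, against 5.61, 5.73 and 5.78 in S42A cells (difference 1.23 ± 0.20). Mirlet7a-2 (0.63 ± 0.16) and Mir100hg (0.96 ± 0.12) were higher as well. Of a related cluster on another chromosome, Mir99a (0.66 ± 0.13) and Mirlet7c-1 (0.39 ± 0.10) rose and Mir125b-2 was not called (0.08 ± 0.050). Mirlet7c-1 and Mir125b-2 were dim in both lines, and Mir100 and Mirlet7a-2 in S42A cells. The arrays read precursor RNA, and mature miRNAs were not measured. Mature sequences are shown to compare the clusters (RefSeq, GRCm38.p6), with the seed, bases 2 to 8, in capitals.
miR-100-5p: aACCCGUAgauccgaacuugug
miR-99a-5p: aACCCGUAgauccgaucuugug
miR-125b-5p: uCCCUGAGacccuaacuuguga
let-7c-5p: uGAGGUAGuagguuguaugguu
The first pair share a seed, so a member of that seed family was higher in each cluster.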
